A study of Mus musculus with 24 samples.

Results

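The regions described here were first called accessible at day 7 (D7) of cardiac differentiation and were called again in each later peak list, at D8, D10 and D15. They were found by merging the ATAC-seq peaks of 12 lists into regions. A region was taken when a peak of each of the 4 lists from D7 on overlapped it by at least 1 bp and no peak of the 8 earlier lists did. This gave 982 of 128679 regions, or 0.763% of all merged regions. The regions were chosen by these calls, so the calls are given only as a description. A region missing from a list was not called there, which does not show that it was closed. "Opened" below means first called.

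The data come from A2lox.cre cells, an established mouse embryonic stem cell line with a site for inserting inducible transgenes, taken through differentiation to the cardiomyocyte stage. The time points were the 2i stage, a culture that holds the cells in naive pluripotency, then D0, D1, D2, D3, D4, D5, D6, D7, D8, D10 and D15. ATAC-seq uses the Tn5 transposase to insert adapters into open DNA in isolated nuclei. There were 24 samples, 2 biological replicates at each of the 12 time points, and both replicates of a time point share 1 deposited peak list, per the labels. No value below therefore has a replicate spread, and no difference was tested. Intervals are 95% intervals and cover counting error only. No treatment, mutation or sort is given in the labels, so every list is taken here to cover all cells of the culture. A change in the share of a cell type and a change within cells cannot be told apart.

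Accessible DNA away from gene starts often marks enhancers, which are bound by transcription factors and act on genes over a distance. Heart-like cultures made from embryonic stem cells pass through mesoderm and cardiac progenitors before beating cardiomyocytes appear. They can also hold endothelial, smooth muscle, epicardial and fibroblast-like cells, and the fibroblast-like cells lay down much of the collagen-rich matrix. Promoters fall into a CpG-rich kind, which is open in most cell types, and a CpG-poor kind, which is more often open in particular cell types.

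Of the 982 regions, 40 overlapped a RefSeq promoter window, the 300 bases made of 250 before a gene's annotated start and 50 from it. The windows used cover 17273 of 21627 protein-coding genes. Genes outside them, among them Col1a1, Upk1b and Gata4, which had members centred close to a gene end, do not enter the counts of promoters. The following sequences show the 250 bases before the start for 8 of the genes concerned, from RefSeq (GRCm38.p6, the assembly named mm10), 5′ to 3′ on the gene's strand, with CpG dinucleotides in capitals. Fcgrt, Srpk2, the long non-coding RNA gene Gm34421, Angptl1 and Angptl7 are shown because their regions were the 5 highest-ranked at promoters. The rank is explained with the peak values below.
Fcgrt, chr7:45103823-45104072, minus strand: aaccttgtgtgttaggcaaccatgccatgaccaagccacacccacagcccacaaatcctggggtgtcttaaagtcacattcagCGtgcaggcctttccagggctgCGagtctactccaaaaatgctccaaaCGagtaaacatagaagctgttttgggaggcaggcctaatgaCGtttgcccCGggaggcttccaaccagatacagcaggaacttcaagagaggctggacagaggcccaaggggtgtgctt
Srpk2, chr5:23616572-23616821, minus strand: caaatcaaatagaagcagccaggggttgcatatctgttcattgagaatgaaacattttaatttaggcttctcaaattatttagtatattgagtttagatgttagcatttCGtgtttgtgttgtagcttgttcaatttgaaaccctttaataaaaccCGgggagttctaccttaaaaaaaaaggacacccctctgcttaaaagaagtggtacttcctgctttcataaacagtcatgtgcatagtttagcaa
Gm34421, chr1:169254360-169254609, plus strand: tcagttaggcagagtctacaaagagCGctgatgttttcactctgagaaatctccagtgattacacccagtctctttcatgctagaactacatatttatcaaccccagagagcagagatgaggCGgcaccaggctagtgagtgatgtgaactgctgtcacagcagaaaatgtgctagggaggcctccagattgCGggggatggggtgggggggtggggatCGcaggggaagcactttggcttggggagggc
Angptl1, chr1:156838773-156839022, plus strand: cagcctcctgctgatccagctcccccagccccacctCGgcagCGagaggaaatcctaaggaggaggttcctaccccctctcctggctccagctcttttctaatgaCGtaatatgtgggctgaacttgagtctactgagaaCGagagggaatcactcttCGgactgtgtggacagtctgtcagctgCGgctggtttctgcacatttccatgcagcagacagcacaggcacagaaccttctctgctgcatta
Angptl7, chr4:148500463-148500712, minus strand: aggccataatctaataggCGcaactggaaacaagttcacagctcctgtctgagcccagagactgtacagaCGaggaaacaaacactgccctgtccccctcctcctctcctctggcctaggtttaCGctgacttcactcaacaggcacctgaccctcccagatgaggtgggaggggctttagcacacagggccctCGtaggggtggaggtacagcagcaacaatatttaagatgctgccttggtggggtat

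Igfbp5, Col3a1 and Ecm1 are shown because they encode secreted or matrix proteins, and were chosen after their values were seen. Igfbp5 binds insulin-like growth factors, Col3a1 encodes the chain of fibrillar type III collagen, and Ecm1 is a secreted glycoprotein of the extracellular matrix.
Igfbp5, chr1:72874866-72875115, minus strand: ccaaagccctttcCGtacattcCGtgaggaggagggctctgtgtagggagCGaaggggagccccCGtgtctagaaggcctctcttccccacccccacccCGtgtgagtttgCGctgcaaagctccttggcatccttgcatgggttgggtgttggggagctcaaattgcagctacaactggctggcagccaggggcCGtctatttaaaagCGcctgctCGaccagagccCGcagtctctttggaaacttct
Col3a1, chr1:45311288-45311537, plus strand: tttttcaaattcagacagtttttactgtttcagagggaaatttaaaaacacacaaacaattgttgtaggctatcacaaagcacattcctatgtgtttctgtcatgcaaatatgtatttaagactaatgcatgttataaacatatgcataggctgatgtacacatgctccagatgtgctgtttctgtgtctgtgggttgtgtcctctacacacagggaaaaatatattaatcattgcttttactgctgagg
Ecm1, chr3:95739570-95739819, minus strand: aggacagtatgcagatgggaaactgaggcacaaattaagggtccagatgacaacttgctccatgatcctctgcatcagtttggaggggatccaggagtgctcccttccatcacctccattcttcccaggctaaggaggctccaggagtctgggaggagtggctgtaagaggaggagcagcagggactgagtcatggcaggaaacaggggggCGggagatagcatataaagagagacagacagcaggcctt

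Col4a2, which encodes a chain of basement membrane collagen IV, is shown for contrast. It had 3 of the regions inside its body, while its own promoter was called in all 12 lists.
Col4a2, chr8:11312555-11312804, plus strand: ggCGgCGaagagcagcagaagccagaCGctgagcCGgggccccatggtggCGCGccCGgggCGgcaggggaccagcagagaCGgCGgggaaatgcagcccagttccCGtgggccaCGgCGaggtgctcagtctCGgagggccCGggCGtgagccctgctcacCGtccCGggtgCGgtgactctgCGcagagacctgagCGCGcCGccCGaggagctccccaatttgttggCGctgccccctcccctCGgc

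The 250 bases before the start held 0 CpG dinucleotides at Col3a1, 1 at Ecm1, 2 at Srpk2, 4 at Gm34421, 4 at Angptl7, 5 at Fcgrt, 6 at Angptl1 and 10 at Igfbp5. The Col4a2 sequence held 26. The 8 newly called promoter windows were thus CpG-poor beside the promoter called throughout, and the comparison over all promoter windows is given further on.

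The D7 list had 17926 regions that no earlier list held, of which 5.48% were called in every later list. At D8, 43.7% of the 17926 were called, at D10 13.8% and at D15 10.7%. No later list held 52.1% of them. The 982 were therefore a small part of a large set of first calls at D7, most of which were not called at D10. Of regions first called at D5, 4.94% were called in every later list. The same share was 8.70% for regions first called at D6 and 6.72% for those first called at D8. The number of lists that had to hold the region fell with each day, so these shares describe different conditions.

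The D7 list was the longest, with 66993 peaks, and followed one of the shortest, D6, with 32791 peaks. D8 had 53633 peaks, D10 had 32641 and D15 had 36248. With the 31324 strongest peaks by −log10 q from each list, 460 regions met the rule. At a fold enrichment near 5, the median −log10 q of a peak was 8.07 at D6, 7.46 at D7 and 8.14 at D8, and 8.57 at D10 and 8.96 at D15. At 2i it was 5.26 and at D4 5.31, and it was 6.17 at D0, 6.44 at D1, 6.17 at D2 and 6.30 at D5. At D3 it was 9.26. In most of the early lists, all but D3 and D6, the same enrichment thus carried less weight than in any list from D7 on.

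Many regions missed the rule by 1 list. Lack of a D15 call kept out 1046 regions, lack of a D10 call 529, lack of a D7 call 275 and lack of a D8 call 125. A call at D6 in addition to the 4 late lists kept out 296 regions and a call at D5 alone 204. A call at 2i alone kept out 32, at D3 alone 49 and at D4 alone 61. The D15 and D10 lists thus kept out the most regions, followed by D6 and D7. In the regions that lacked only D15, the strongest peak had a median −log10 q of 10.6 at D7, 7.44 at D8 and 3.24 at D10. In the members these medians were 10.9 at D7, 9.52 at D8 and 5.38 at D10.

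Most members were peaks of middle or low strength within their lists. Fold enrichment, the authors' own value for each peak, is the ratio of signal to local background. The strongest peak of each member had a median fold enrichment of 5.47 at D7 (quartiles 4.17 and 7.29), 5.26 at D8 (4.18 and 6.68), 4.27 at D10 (3.69 and 5.45) and 4.73 at D15 (3.84 and 5.89). Fold enrichment is not comparable between lists, so each peak was also placed by its percentile among the peaks of its own list. The lists differ in length, so percentiles are read within a list and not as a change between lists. The median percentile of members was 54.5 (D7), 57.0 (D8), 38.8 (D10) and 42.1 (D15). In regions opened by D5 and kept (682 regions called at D5, D6, D7, D8, D10 and D15 and not at 2i or D0 to D3) it was 81.1 at D7, 75.6 at D8, then 49.6 at D10 and 43.7 at D15. In the 11089 regions called in all 12 lists it was between 80.8 and 89.5. At D7 the members thus stood well below both other classes, and at D15 they were close to the regions opened by D5.

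**Figure D1:**
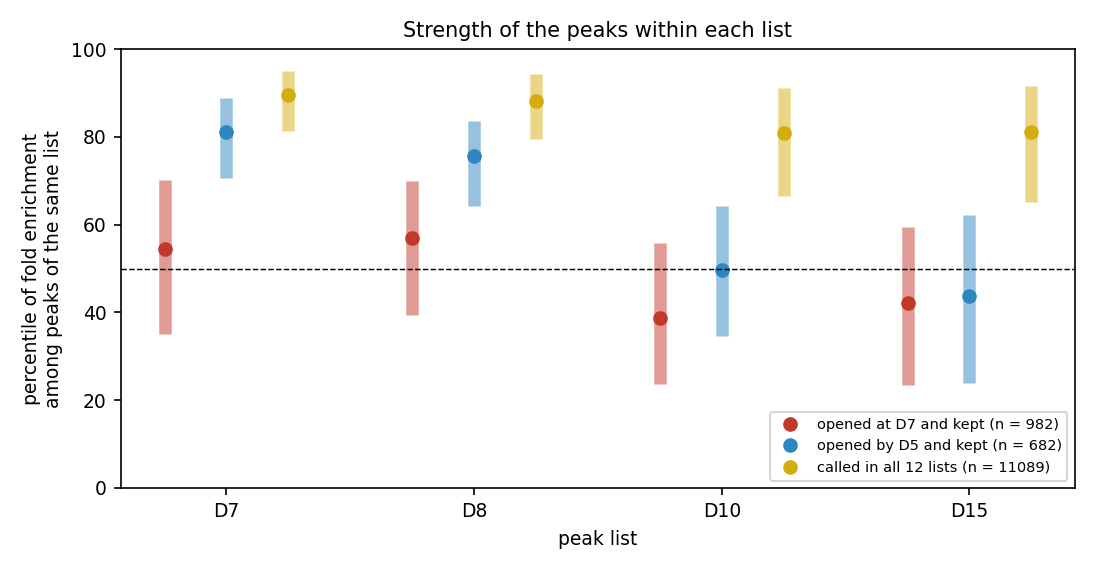
Percentile of fold enrichment of the strongest peak in each region among all peaks of the same list (y axis, 0 to 100) in the D7, D8, D10 and D15 lists, for 982 regions opened at D7 and kept, 682 opened by D5 and kept and 11089 called in all 12 lists. Points are medians, bars run between the quartiles and the dashed line is the list's median. Regions opened at D7 and kept had medians of 54.5 at D7 and 42.1 at D15, below the 89.5 and 81.2 of regions called throughout.

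Among the 982 members, 129 (13.1%) were above the median of the list in all 4 lists, and 189 (19.2%) were below it in all 4. None was in the top 10% of all 4 lists. The weakest of a member's 4 calls had a median −log10 q of 3.67, with a lowest value of 1.30 and a highest of 40.2. It was under 2 in 157 members (16.0%) and at least 5 in 306 (31.2%). The weakest call came from D10 in 407 members, from D15 in 339, from D7 in 133 and from D8 in 103. Many members thus rested on a call near the threshold in 1 late list. Across the 982 members, which share the same libraries, Spearman's rho between percentiles was 0.66 for D7 and D8, 0.49 for D8 and D10, 0.43 for D10 and D15 and 0.13 for D7 and D15. A member's strength at D7 said little about its strength at D15.

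Members were ranked by the lowest of their 4 percentiles. The highest-ranked lay inside Cfap69, a gene of cilia and flagella, at chr5:5648570-5649558, with a fold enrichment of 11.5 at D7 and 12.4 at D8, and 11.1 at D10 and 12.1 at D15. In 6 of the 12 highest-ranked members no protein-coding gene lay within 50 kb. One of these, at chr3:49642156-49642804, lay 101 kb from the nearest gene and had 16.0 (D7), 12.4 (D8), 9.40 (D10) and 9.08 (D15). Its D7, D8, D10 and D15 summits lay within 5 bp of each other, between positions 49642535 and 49642540. A member inside Sema3c, which encodes a secreted guidance cue needed for the cardiac outflow tract in mouse, had 16.6 at D7, 10.8 at D8, then 9.40 at D10 and 8.79 at D15. It lay at chr5:17584240-17584853, 9.73 kb from the gene's end. A member 37.4 kb left of Adamts1, a secreted protease that cuts the matrix proteoglycan versican, had 15.3 at D7 and 9.49 at D8, and 8.20 at D10 and 8.20 at D15. Among the peaks of the D7 list the Sema3c region stood at the 98.4 percentile and the Adamts1 region at 97.1.

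The member inside Trps1, a GATA-type zinc finger repressor, had a fold enrichment of 9.44 (D7), 10.7 (D8), 7.99 (D10) and 14.8 (D15). Its percentile was 80.9 within the D7 list and 99.7 within the D15 list. The member inside Afap1l2, an adaptor linked to actin filaments, had 11.2 at D7, 9.16 at D8, then 8.46 at D10 and 8.70 at D15.

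**Figure D2:**
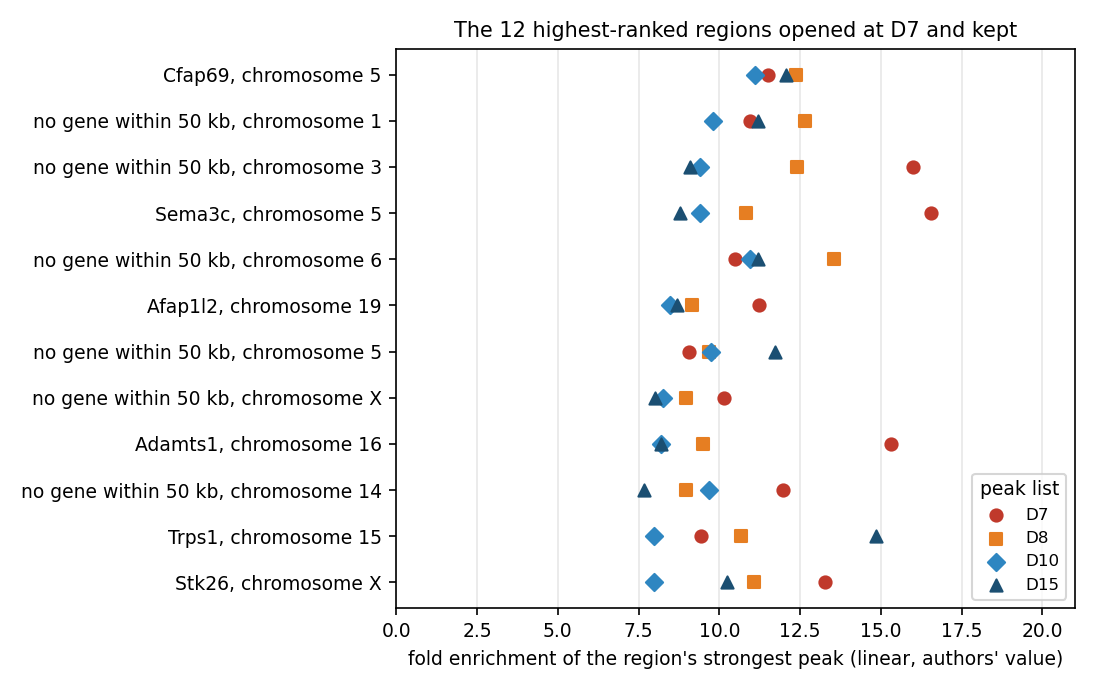
Fold enrichment (x axis, linear, the authors' value) of the strongest peak in the D7, D8, D10 and D15 lists for the 12 highest-ranked regions opened at D7 and kept, each named by its nearest protein-coding gene within 50 kb and its chromosome. Cfap69 had values between 11.1 and 12.4 in the 4 lists, and the Trps1 region had 14.8 at D15. Fold enrichment is comparable within a list and not between lists.

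The members lay away from gene ends. Within 1 kb of either annotated end of a protein-coding gene were 38 of the 982 members, or 3.87% (2.83 to 5.27). The share was 3.67% in regions opened by D5 and kept, 3.77% in the 5281 regions called only at D7 and D8 and 4.18% in the 479 called only at D10 and D15. It was 76.4% in regions called in all 12 lists and 11.9% in all regions. The late classes therefore had like shares at gene ends, and the low share was found in each of them. Inside a gene body were 53.6% of members (50.4 to 56.7), against 48.2% of all regions. It was 52.8% in regions opened by D5 and kept and 56.8% in regions called only at D7 and D8. In those called only at D10 and D15 it was 45.1%. Over 50 kb from any protein-coding gene were 20.2% of members (17.8 to 22.8), against 25.95% of all regions. The share was 23.0% in regions opened by D5 and kept. It was 16.9% in regions called only at D7 and D8 and 29.2% in those called only at D10 and D15.

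Distance to a RefSeq transcription start could be given for 952 members. The starts were those of the 17273 protein-coding genes with a window, none of them on chromosome 18, so a member next to another gene's start was given a distance to a farther one. The median distance was 56.9 kb. Within 1 kb of a start were 20 of the 952, between 10 and 50 kb 33.0%, and over 100 kb 32.4%. In all regions the median was 54.6 kb, and in regions called in all 12 lists it was 0.202 kb.

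**Figure D3:**
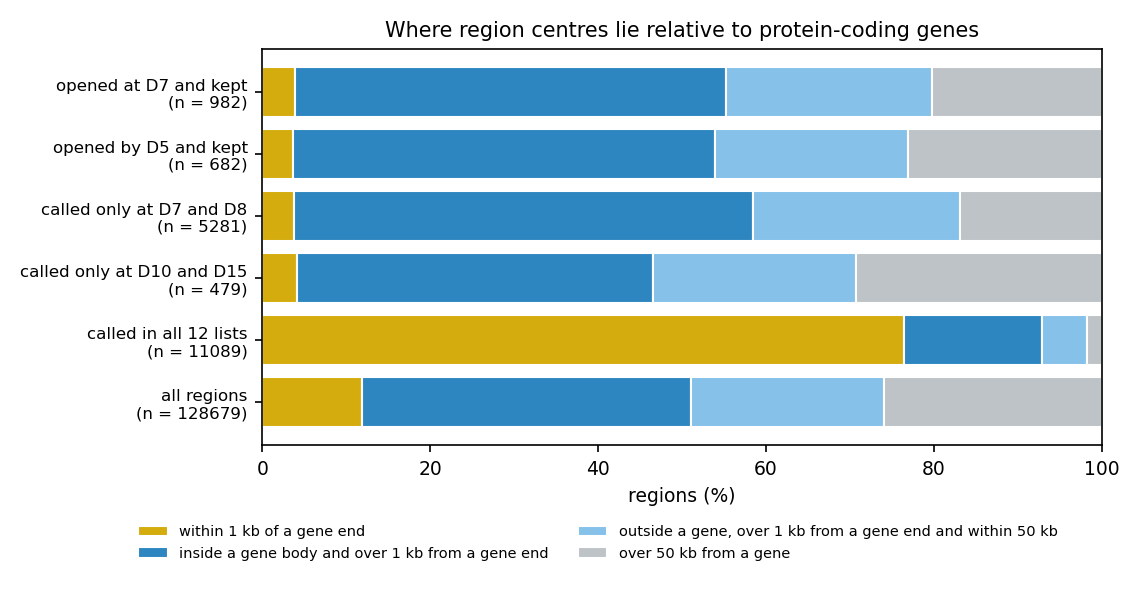
Share of regions (x axis, %) by the place of the region's centre relative to protein-coding gene bodies, for 982 regions opened at D7 and kept, 682 opened by D5 and kept, 5281 called only at D7 and D8, 479 called only at D10 and D15, 11089 called in all 12 lists and all 128679. Gene ends held 3.87% of regions opened at D7 and kept and 76.4% of regions called in all 12 lists.

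Within a member the summit, the point of highest signal, often moved by less than 100 bp between D7 and D15. The median distance between the D7 and D15 summits was 76 bp (quartiles 32 and 157), and 598 members (60.9%) had them within 100 bp. In 109 members (11.1%) they were over 250 bp apart. Between D7 and D8 the median was 44 bp. In regions opened by D5 and kept the medians were 67 bp between D7 and D15 and 30 bp between D7 and D8, and in regions called in all 12 lists 45 bp and 23 bp. A distance over 250 bp leaves unclear whether the same site was called at both stages. Members were 269 to 1955 bp wide, with a median of 728 bp, and 89.6% had a single summit at D7.

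The nearest protein-coding gene body within 50 kb was taken as a member's gene, which does not show that the region acts on that gene. By this rule 784 members (79.8%) were assigned to 703 genes, or 3.25% of 21627 genes. A single member was assigned to 636 genes, 2 members to 55 genes, 3 to 10 genes and 4 to each of Aopep, an aminopeptidase gene, and Smg6, which encodes an endonuclease of RNA decay. Aopep had 32 regions of any kind and Smg6 had 10. Genes with 3 members included Col4a2 (of 18 regions), Ephb2, an ephrin receptor gene (of 33), Auts2 (of 97), Nav2 (of 65), Lrmda (of 42), Pakap (of 49), Dgki, a diacylglycerol kinase gene (of 29), and Eml6 (of 19). Many of these genes are long. The median length of a gene with a member was 77.5 kb, against 17.3 kb over all protein-coding genes. Genes over 100 kb held 46.9% of assigned members, against 39.6% of all assigned regions.

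In lists of genes by function, 57 members were assigned to a gene of 1 or more of 22 lists. Over all regions near a protein-coding gene, 0.823% were members, and each list is set beside that share. The largest counts were in the fibroblast and extracellular matrix list with 10 members, the calcium handling list with 7 and the Wnt and Notch list with 6. The interval lay above 0.823% for the fibroblast and extracellular matrix, smooth muscle, and nuclear receptor and retinoic acid lists, and held 0.823% for every other list, housekeeping genes included. Lists of pluripotency, mesoderm, endoderm, neural, blood and skeletal muscle genes had 0 or 1 member.

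Near fibroblast and extracellular matrix genes, 10 of 332 regions were members, or 3.01% (1.64 to 5.45). Of the same 332 regions, 8 were opened by D5 and kept, a class of 682 among all 128679 regions. A raised share near these genes was thus not particular to the members. All 10 lay at collagen genes. Col4a2 had 3 inside its body. The strongest, at chr8:11375668-11376691, had a fold enrichment of 8.20 at D7 and 8.18 at D8, and 5.20 at D10 and 6.59 at D15. The other Col4a2 members had 5.19 and 5.16 at D7, 3.21 and 5.07 at D8, then 4.38 and 3.67 at D10 and 3.99 and 5.85 at D15. The Col4a2 promoter, whose CpG-rich sequence is given above, was called in all 12 lists, so at this gene the new calls were in the body.

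Col5a1, a chain of the fibril-regulating collagen V, had 2 members inside its body, 48.4 and 70.7 kb from its nearer end. The first had 3.69 (D7), 5.31 (D8), 3.65 (D10) and 4.31 (D15). Its promoter was also called in all 12 lists. Col6a3, a chain of the microfibrillar collagen VI, had 2 members on its left. The one 22.7 kb away had 13.0 at D7, 9.46 at D8, then 6.25 at D10 and 3.20 at D15, and the one 8.45 kb away 5.47 at D7 and 4.56 at D8, and 3.86 at D10 and 4.58 at D15. The Col6a3 promoter was called at D8 and D15 only, so it was not called at D7 when its distal regions were.

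At Col3a1 the member was the promoter itself, at chr1:45311198-45311867, with 3.10 (D7), 4.48 (D8), 3.27 (D10) and 4.01 (D15). Col1a1, the main chain of fibrillar collagen I, had a member whose centre lay 0.030 kb left of its body, with 2.40 at D7, 2.94 at D8, then 2.75 at D10 and 3.24 at D15. Both were weak calls, ranked 807 for Col3a1 and 972 for Col1a1 among 982. Col6a1 had 1 member 27.6 kb to its left. With only peaks of −log10 q of at least 5, 1 region near the list met the rule, and 1 with lists of equal length. Where a peak had to cover at least 50% of the region the count was 5. The count near these genes was thus lower under each of these settings. Of the 75 regions near these genes that were first called at D7, 13.3% were members, against 5.48% of all regions first called at D7. The share was alike in the nuclear receptor (12.8%), epicardial (12.5%), endothelial (11.6%) and smooth muscle (11.1%) lists. It was 4.69% for cardiac transcription factors, 4.35% for sarcomere genes and 3.64% for BMP and TGF-beta genes. The share is thus not particular to the matrix list, and it rests on the same 10 members.

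Near smooth muscle genes, 3 of 100 regions were members, or 3.00% (1.03 to 8.45). They lay at Cnn1, which encodes the actin-binding protein calponin, Mylk, the myosin light chain kinase gene, and Smtn, the gene of the contractile-cell protein smoothelin. The Cnn1 region, 3.05 kb left of the gene, had 8.50 at D7 and 7.54 at D8, and 3.05 at D10 and 3.37 at D15. The Mylk region had 4.61 (D7), 3.65 (D8), 3.93 (D10) and 5.51 (D15), and also overlapped the promoter window of the long non-coding RNA E130310I04Rik. The Cnn1 promoter was called at D2, D3, D5 and D7, and the Mylk promoter in no list. Among peaks with −log10 q at or above 5, and with lists of equal length, 0 regions near this list met the rule.

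The epicardial list, for the sheet of cells that covers the heart, had 3 of 144 regions, or 2.08% (0.711 to 5.95), at Lrrn4, Upk1b and Wt1. Of the same 144 regions, 6 were opened by D5 and kept. Wt1 encodes a zinc finger factor of the epicardium, and its member lay 36.2 kb to the left with 3.65 at D7, 3.61 at D8, then 3.94 at D10 and 3.44 at D15. The Upk1b member, centred 0.039 kb right of the gene, had 10.5 at D7 and 9.24 at D8, and 4.56 at D10 and 3.30 at D15. The Lrrn4 member, inside the gene, had 4.90 (D7), 3.75 (D8), 6.03 (D10) and 7.10 (D15). Within the D7 list the Upk1b region stood at the 85.1 percentile, above the Lrrn4 region at 46.9, and within the D15 list the Upk1b region stood at 11.6, below the Lrrn4 region at 72.2.

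The endothelial and endocardial list had 5 of 277 regions, or 1.81% (0.773 to 4.16), at Cdh5, Emcn, Eng, Erg and Ets1. Cdh5 encodes the cadherin of endothelial junctions, Eng a co-receptor of the TGF-beta family, and Erg and Ets1 are ETS transcription factors. The Cdh5 region, 41.3 kb to the left, had 9.52 at D7, 9.51 at D8, then 8.06 at D10 and 3.86 at D15, and also overlapped the promoter window of the long non-coding RNA Gm39236. The Emcn region, 47.8 kb left of the gene of the surface protein endomucin, had 6.77 at D7 and 5.27 at D8, and 7.27 at D10 and 7.14 at D15. Inside Erg the values were 5.76 (D7), 5.76 (D8), 5.05 (D10) and 3.84 (D15). Neither Emcn nor Erg had its promoter called in any list. The Eng promoter was called at D0, D2 and D3 and not at D7 or later, while its member was called from D7 on.

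The list of nuclear receptors and retinoic acid genes had 5 of 242 regions, or 2.07% (0.886 to 4.74). The lower limit was close to the 0.823% of all assigned regions, and 22 lists were looked at. Aldh1a1, which makes retinoic acid from retinaldehyde, had 2 inside its body, and the receptors Rara, Rarb and Rxra had 1 each. The Aldh1a1 members had 6.77 and 7.81 at D7, 3.69 and 3.69 at D8, then 2.85 and 3.42 at D10 and 3.52 and 6.72 at D15. Among peaks with −log10 q at or above 5, and with lists of equal length, 0 regions near Aldh1a1 met the rule. The Rxra member had 4.29 at D7, 3.82 at D8, then 5.01 at D10 and 6.25 at D15. Regions opened by D5 and kept, 682 of all 128679 regions, numbered 0 near this list. At these counts that does not set the members apart from that class.

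In the cardiomyocyte lists, calcium handling, ion channels and hormones had 7 of 473 regions, or 1.48% (0.719 to 3.02). Ryr2, the channel that releases calcium from the sarcoplasmic reticulum, and Kcnq1, a potassium channel gene, had 2 each. Cacna2d1 and Cacnb2, which encode accessory subunits of calcium channels, and Camk2d, a calcium-dependent kinase gene, had 1 each. The region 3.84 kb left of Ryr2, at chr13:11548904-11549618, had 14.5 at D7 and 10.6 at D8, and 9.16 at D10 and 6.76 at D15, and its D7 and D15 summits lay 2 bp apart. It ranked 26 of 982, the highest of any region near a listed gene. The other Ryr2 region, 202 kb inside the gene from its nearer end, had 8.59 (D7), 5.54 (D8), 4.27 (D10) and 3.52 (D15). The Ryr2 promoter was called in all 12 lists. Among peaks with −log10 q at or above 5 the list had 5 members, and with lists of equal length 4.

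Cardiac transcription factors had 3 of 377 regions, or 0.796%, at Gata4 and Prdm16. Gata4, a zinc finger factor of early heart development, had 2 on its right. The one 25.7 kb away had 7.17 at D7, 7.94 at D8, then 6.23 at D10 and 5.21 at D15, and the one centred 0.049 kb away 3.33 at D7 and 4.59 at D8, and 4.41 at D10 and 4.68 at D15. The sarcomere list had 2 of 264 regions, or 0.758%, inside Csrp3, a muscle LIM protein gene, and Myom2, a gene of the M-band. The Csrp3 region had 5.14 (D7), 3.32 (D8), 3.00 (D10) and 3.66 (D15), and the Myom2 region 5.45, 4.27, 4.03 and 3.60 in the same lists. Both shares were near the 0.823% of all assigned regions, so they are no result about these genes.

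Genes of the intercalated disc and costamere, which join cardiomyocytes and anchor the sarcomere, had 5 of 381 regions, or 1.31% (0.562 to 3.03), at Ank3, Cdh2, Jup, Sgcd and Vcl. The Cdh2 region, 41.1 kb left of the N-cadherin gene, had 11.98 at D7, 9.94 at D8, then 3.70 at D10 and 3.84 at D15. The Vcl region, 37.4 kb left of the vinculin gene, had 7.20 at D7 and 4.02 at D8, and 3.92 at D10 and 4.33 at D15 and overlapped the promoter window of the long non-coding RNA Gm30212. Mitochondrial and fatty acid metabolism had 3 of 206, or 1.46% (0.496 to 4.19). Cpt1a, which loads fatty acids for entry into mitochondria, had 6.34 (D7), 5.46 (D8), 8.26 (D10) and 7.68 (D15) in its body. Pdk4, a kinase that shuts off pyruvate dehydrogenase, had 4.95 at D7, 5.80 at D8, then 4.56 at D10 and 7.77 at D15, 13.3 kb to its right. The third lay inside Esrrg, an orphan nuclear receptor gene. The Cpt1a region stood at the 63.3 percentile of the D7 list and the 77.7 percentile of the D15 list.

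In signalling, Wnt and Notch genes had 6 of 447 regions, or 1.34% (0.617 to 2.90). They lay inside Tcf7l1, a Wnt-pathway repressor gene, with 2, and inside Heyl, Maml3, Notch2 and Ror1 with 1 each. The stronger Tcf7l1 region had 5.17 at D7 and 6.81 at D8, and 6.09 at D10 and 7.91 at D15. BMP and TGF-beta genes had 2 of 325, or 0.615%, at Bmp10, a growth factor of trabeculating heart muscle, and Tgfbr3, the gene of the co-receptor betaglycan. The Bmp10 region, 6.26 kb to the left, had 6.54 (D7), 5.26 (D8), 6.11 (D10) and 3.78 (D15), and the Bmp10 promoter was called at D8 alone. The TEAD, YAP and AP-1 list had 1 of 197, at Vgll4. Housekeeping genes had 1 of 53, or 1.89% (0.334 to 9.94), right of Actb, and formative and primed pluripotency genes 1 of 106, or 0.943%, inside Dnmt3a.

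No member was assigned to a gene of the naive pluripotency list (0 of 146 regions, which allows a share of up to 2.05%), the primitive streak list (0 of 102, up to 2.94%) or the early mesoderm list (0 of 143, up to 2.098%). The same held for the endoderm list (0 of 99, up to 3.03%), the neural ectoderm list (0 of 152, up to 1.97%), the blood list (0 of 82, up to 3.66%) and the skeletal muscle list (0 of 93, up to 3.23%). Each of these limits lies above the 0.823% of all assigned regions, so a share below that level was not detectable at these counts.

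**Figure D4:**
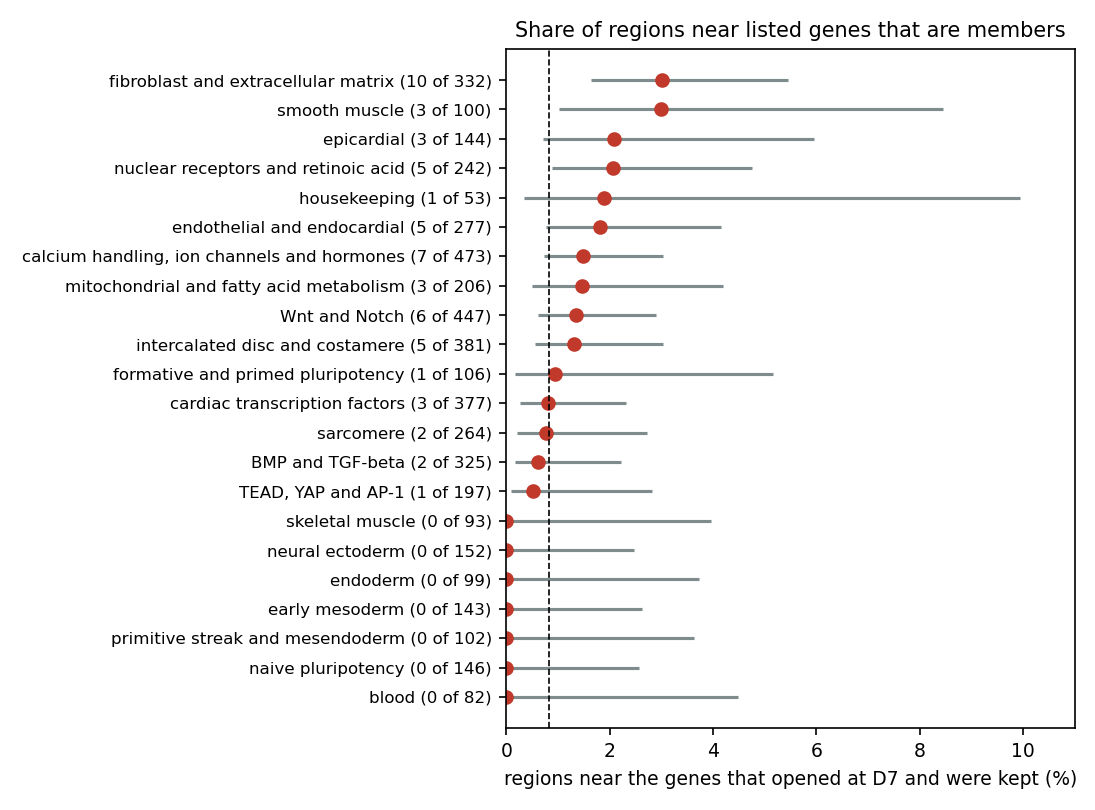
Share of the regions assigned to the genes of each list that opened at D7 and were kept (x axis, %), with members of all regions in parentheses. Points are shares, lines are Wilson 95% intervals and the dashed line is the 0.823% of all assigned regions. Fibroblast and extracellular matrix genes had 3.01%, sarcomere genes 0.758%, and 7 lists had 0 members.

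Most genes with a member had their promoter called at D6 or before. Of the 703 genes, 548 had a promoter window. The promoter was called at D6 or before in 84.9% of these (81.6 to 87.6) and in all 12 lists in 66.8%. It was first called at D7 in 16 genes, or 2.92%, against 0.850% of all genes with a window and any region. For genes of regions called only at D7 and D8 this share was 2.17%. A member that overlaps its gene's promoter window is itself such a call, so the share partly follows from the rule. The promoter was called in no list in 11.5%, against 23.9% of all genes with a window and any region. Among genes of regions opened by D5 and kept, 86.4% had a promoter called at D6 or before, among genes of regions called only at D7 and D8 83.5%, among genes of regions called only at D10 and D15 77.4%, and among all 14818 genes with a window and any region 74.8%. The regions were thus added mostly to genes whose promoter was already called, and the same was so for the other late classes.

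The 40 members at promoters held 45 of 32619 windows, or 0.138%. Of these, 21 windows were of 20 protein-coding genes and 24 of long non-coding RNA genes. The protein-coding genes were Fcgrt, Srpk2, Angptl1, Angptl7, Casp12, Lgals3bp, Lrrc17, Rcan2, Fgd4, Tle6, 9230112D13Rik, Ier3, Igfbp5, Mr1, D17H6S53E, Col3a1, Hmox2, Ecm1, Zmynd8 and Emp3. At Srpk2, Rcan2, Fgd4, Tle6, Hmox2 and Zmynd8 the start lay well inside the gene body, so it is an alternative start. A call there does not show that the gene's other starts were first called at D7. Angptl1 and Angptl7 encode angiopoietin-like proteins. The Fcgrt promoter, of the neonatal Fc receptor, had 6.77 at D7, 5.56 at D8, then 7.18 at D10 and 7.44 at D15, with its D15 summit 82 bp before the start. The Angptl1 promoter had 7.58 at D7 and 9.58 at D8, and 7.96 at D10 and 5.03 at D15, and the Angptl7 promoter 5.28 (D7), 8.17 (D8), 4.58 (D10) and 4.84 (D15). The promoter window inside Srpk2, the gene of a kinase of splicing factors, had 7.29 at D7, 7.76 at D8, then 5.35 at D10 and 6.95 at D15. These regions ranked between 55, for Fcgrt, and 184, for Angptl7, of 982.

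The Igfbp5 promoter had 5.15 at D7 and 4.20 at D8, and 4.36 at D10 and 3.33 at D15. The Ecm1 promoter had 3.30 (D7), 3.16 (D8), 2.80 (D10) and 4.70 (D15), with its D15 summit 76 bp before the start. The regions at Zmynd8 and Emp3 ranked 979 and 980 of 982.

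The promoter windows held by members were CpG-poor, as were other promoters not called early. The CpG observed over expected, which divides the count of CpG by that expected from the C and G content, had a median of 0.247 in the 45 windows (quartiles 0.155 and 0.347). It was 0.816 in the 11052 windows held by regions called in all 12 lists and 0.387 in all windows. In the 15923 windows called in no list of 2i and D0 to D6 it was 0.191, so lack of an early call went with low CpG whether or not a call came later. A value under 0.6 was found in 39 of the 45 windows, or 86.7% (73.8 to 93.7), against 96.4% of windows with no early call and 1879 of the 11052 called in all 12 lists. The exceptions were both windows of Hmox2, D17H6S53E and the long non-coding RNAs Gm20522, Gm15998 and Gm15326. In 41 windows of regions opened by D5 and kept the median was 0.240.

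**Figure D5:**
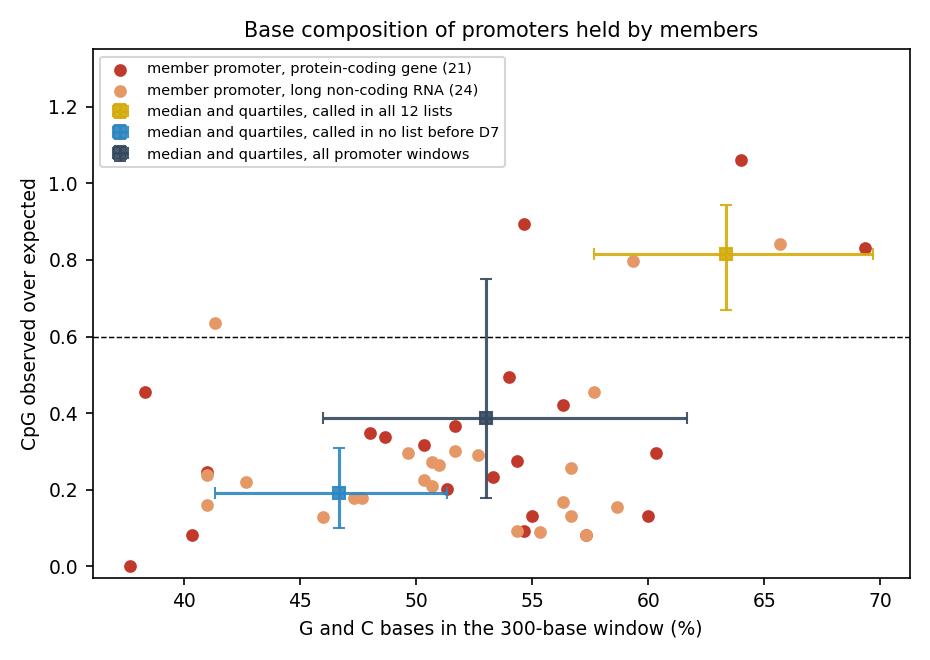
CpG observed over expected (y axis) against the share of G and C bases (x axis, %) in 300-base promoter windows. Points are the 45 windows held by regions opened at D7 and kept, 21 of protein-coding and 24 of long non-coding RNA genes; squares with bars are medians and quartiles of windows called in all 12 lists, called in no list before D7, and all windows. Most points lie under the dashed line at 0.6, near the 0.191 of windows with no early call and below the 0.816 of windows called throughout.

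Motifs were searched on both strands of the 300-base windows. GGAATG, the core of TEAD sites, was found in 12 of the 45 windows, or 26.7% (16.0 to 41.0), against 31.7% of windows of regions opened by D5 and kept, 17.2% of windows with no early call and 14.6% of all windows. In the 21 protein-coding windows it was found in 9.52%, so most of the matches were at long non-coding RNA genes. GATAAG, read by GATA factors, was found in 1 window, or 2.22% (0.393 to 11.6), against 10.3% of windows with no early call and 7.47% of all windows. In windows of regions opened by D5 and kept, GATAAG was found in 9 of 41. Each share rests on few windows, and the differences were not tested. The 45 windows lay in 40 regions and some overlapped, while the intervals treat every window as separate.

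TGANTCA, read by AP-1, was found in 8.89% of member windows, against 11.04% of windows with no early call. TGACAG, read by MEIS factors, was found in 9 of the 45 windows, against 21.3%, the E-box CANNTG in 80.0% against 81.1%, and CACTTNA, read by NKX2-5, in 6.67% against 15.0%. The MEF2 motif was found in 4.44% against 4.86%, the CArG box of SRF in 0 of 45 windows against 1.94%, and TATAAA in 17.8% against 21.2%. The member windows with the MEF2 motif were overlapping windows of the same long non-coding RNA gene, Gm39671. CANNTG can overlap other motifs. In the sequences shown above, Col3a1 held GGAATG 168, TGACAG 153 and TATAAA 117 bases before the start, counting to the match's first base. Ecm1 held TGANTCA 64 and TATAAA 27 bases before the start, Igfbp5 held GGAATG 233, Angptl1 TGACAG 75 and Gm34421 TGACAG 98 bases before it. A match is only the presence of these letters in the window.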

How the data were processed

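ATAC-seq was done on 24 samples of A2lox.cre mouse embryonic stem cells, 2 biological replicates for each of 12 time points. The submitters' processing notes name cutadapt 2.10, Bowtie2 2.3.2, SAMtools 1.5, Picard, MACS2 2.1.1 and the mm10 build, without order or settings. Neither read depth nor the way replicates were combined is given in the sources used here. Only 12 deposited narrowPeak lists were analysed. Each deposited peak has a score, a summit offset in bp, a fold enrichment (a linear ratio over background) and a q-value as its −log10, as the authors' peak caller gave them, per the submitters' processing notes. The score was not used. Every list starts at a −log10 q near 1.30, a q threshold near 0.05.

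All peaks were merged with bedtools 2.31.1, and counts and shares were computed with Python 3.11.15, pandas 2.3.3 and scipy 1.17.1, with scripts tested on simulated data. The members and the gene lists were chosen with earlier results of these data known. The 22 lists held 514 symbols, of which 513 matched RefSeq (GRCm38.p6). A region's gene was the protein-coding body that holds its centre, otherwise the nearest within 50 kb. Left and right are by coordinate. Shares have Wilson 95% intervals, medians order-statistic intervals, and the limit for a count of 0 is 3 counts. Genes were named by rule: up to 3 with most members in each list, the 10 with most members genome-wide, the 12 highest-ranked regions, the first-ranked region of each list and the first 5 at promoters. Other genes, the families, the TATAAA motif and the promoters of Igfbp5, Col3a1, Ecm1 and Col4a2 were chosen after their values were seen. A planned motif search over the regions needed a genome, which was not used here, so RefSeq promoter windows were searched instead. No test was run, since each time point has 1 list.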

Additional observations from a re-analysis of the deposited data

How the results depend on the processing

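Beside the 982 regions, 496 met the rule with only peaks of −log10 q of at least 5 (306 overlapped one of the 982), 460 with the 31324 strongest peaks of each list (331 overlapped), 1511 with no D10 call asked for and 2028 with no D15 call asked for. The share within 1 kb of a gene end was 6.15% where a peak had to cover at least 50% of the region, and 6.11% within 2 kb. The share over 50 kb from a gene was 24.8% with −log10 q of at least 5 and 23.3% with lists of equal length. The median distance between D7 and D15 summits was 52.5 bp, 55.5 bp and 65 bp under these 3 settings (strong peaks, equal lists, 50% cover). Regions near the gene lists numbered 26 with strong peaks, 21 with equal lists and 92 without the D15 call, beside 57. The median percentile at D15 was 59.8 with strong peaks, 51.0 with equal lists, 50.6 with 50% cover and 35.3 without the D10 call, beside 42.1. The median CpG observed over expected was 0.314 with 50% cover, beside 0.247. Removing peaks also removes early calls, so regions entered as well as left. The cause of the shifts was not tested. Over 17 settings, 308 of 374 counts for single lists and 638 of 765 for single genes stayed within 1.5 times. Most of these settings only drop a requirement, which cannot lower a count, and a list that had no member and gained none was taken as unchanged. These pooled numbers therefore do not show how stable the counts were under the stricter settings. Dropping D0, D1, D2, D3, D5, D7, D8 or D15 from the rule was added after seeing the data. No paired analysis was possible because both replicates of a time point share 1 deposited peak list, and no replicate could be left out for the same reason. Depth is unknown, and a weak region can be missed in a list.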

Other observations

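In families chosen after the values were seen, regions opened at D7 and kept were found at matrix genes beyond the fibroblast list. All 44 collagen genes together had 15 members of 411 regions, or 3.65% (2.22 to 5.93), at 10 genes, including Col25a1 with 2 and Col18a1, Col4a4 and Col6a6 with 1 each. Of these 15 members, 10 were those already counted in the fibroblast and extracellular matrix list, whose count was lower under the stricter settings. The collagen share is thus no separate support for that list, and its interval is a description only. ADAMTS and ADAMTS-like genes, most of which encode proteases of the matrix, had 8 of 276, or 2.90%, with 2 each at Adamts1 and Adamts20. The second Adamts1 region, 19.6 kb to the right, had a fold enrichment of 7.08 (D7), 9.31 (D8), 6.51 (D10) and 6.34 (D15). IGF binding proteins had 3 of 40, at Igfbp1, Igfbp4 and Igfbp5. Loxl1, which encodes an enzyme that cross-links elastin, had 2 members inside its body. Integrins, the cell-surface receptors for matrix, had 0 of 239, with an interval up to 1.58%. Potassium channel genes had 4 of 751 (0.207 to 1.36%) and olfactory receptor genes 0 of 1076 (up to 0.356%). Laminin genes had 3 of 122, ephrin and Eph receptor genes 5 of 267, ADAM protease genes 2 of 135 and semaphorin genes 3 of 224. Over all regions near protein-coding genes the share was 0.823%, which the integrin and potassium channel intervals held.

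The median distance from a member to the nearest other member was 533.6 kb, and 111 of 982 (11.3%) had another within 50 kb. These values were 774.8 kb and 7.92% in the 682 regions opened by D5 and kept. They were 82.0 kb and 37.5% in the 5281 called only at D7 and D8, and 1528 kb and 3.76% in the 479 called only at D10 and D15. Spacing depends on the number of regions in a class, so these values do not show whether the members were spread out or clustered. Runs of 3 lay in Tns3, Eml6, Smg6, Ephb2 and Col4a2. The 3 in Smg6 spanned 14.7 kb, at chr11:75133736-75148398, and the nearest was 13.0 kb left of Hic1, a gene of a zinc finger repressor. On chromosome 7, 2 members lay 2.66 and 45.9 kb left of H19, an imprinted long non-coding RNA gene, though both were assigned to Mrpl23. By chromosome the share of regions that were members was highest on chromosome 19, at 1.22%, and lowest on X, at 0.408%, from 11 members. X held 1.12% of members (0.627 to 1.99) and 2.096% of all regions. It held 1.32% of regions opened by D5 and kept and 1.36% of those called only at D7 and D8. For regions called only at D10 and D15 the share on X was 2.09%, and for those called in all 12 lists 3.102%. The low share on X was thus not particular to the members, and no difference was tested.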
